A study of Mus musculus with 3 samples.

Results

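The 6 genes described here are Foxp1, Foxp3 and Foxp4 of the Foxp group and Foxo1, Foxo3 and Foxo4 of the Foxo group of forkhead transcription factors. They were chosen by name, matched by gene symbol in GENCODE M21 on mm10, and are 6 of 55536 annotated genes measured. Their 58 annotated transcripts were taken from the transcript tables. The material was activated regulatory T cells (Treg cells, CD4 T cells that restrain immune responses) from a male mouse of 9 weeks. Polyadenylated RNA was sequenced in 3 libraries, which the labels call technical replicates of 1 biosample, so there was 1 group and no comparison between conditions. Sorting and activation of the cells are not described in the labels. Every SD below is over the 3 libraries and measures technical spread only.

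Forkhead proteins bind DNA through a winged-helix domain, the forkhead domain. Foxp proteins also carry a zinc finger and a leucine zipper through which they pair with each other, and Foxp3 is the factor that defines the Treg lineage. Foxo proteins act in the nucleus until Akt, downstream of the kinase PI3K, phosphorylates them and they are exported. In Treg cells Foxo1 is known to promote transcription of Foxp3 and of homing and survival genes.

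The libraries 1, 2 and 3 held 31445344, 32612609 and 37259281 expected counts (reads assigned to genes by estimation, which need not be whole). A smaller gene table from a separate alignment held 8827129, 8758421 and 9555924 counts. All 10 T cell markers and all 8 Treg markers tested were detected, with median levels of 980 and 353 TPM (a level corrected for transcript length and scaled to the library). Foxp3 is itself among these Treg markers. T cell markers ran from Trac (2846 ± 8.80), Cd2 (1322 ± 27.2) and Cd3e (1274 ± 39.0) down to Thy1 (110 ± 1.71 TPM), and Treg markers from Tnfrsf18 (873 ± 5.72), Izumo1r (609 ± 18.9) and Ikzf2 (389 ± 26.3) down to Tigit (79.9 ± 3.84 TPM). Apart from haemoglobin RNA, each marker of other cells was below Tigit. Some were not low beside the lower members, as H2-Ab1 and Cd79b exceeded Foxp4 (26.5 TPM) and Lyz2 exceeded Foxo3 (4.84 TPM) and Foxo4 (2.09 TPM). Of the B cell markers 5 of 8 were detected, with a sum between 45.2 and 57.4 TPM over the libraries, from Cd79b (29.3 ± 3.95) down to Pax5 (0.0867 ± 0.0252). Of the CD8 T and NK cell markers 5 of 7 were detected (27.8 to 30.1 TPM, Cd8b1 highest at 21.4 ± 0.893, Klra8 at 0), and of the plasma cell markers 2 of 4 (8.49 to 21.5 TPM, Jchain highest at 13.7 ± 5.72, Tnfrsf17 at 0). Of the macrophage and monocyte markers 6 of 9 were detected (61.3 to 63.3 TPM, Lyz2 highest at 24.9 ± 6.03, Cd14 lowest at 0.273 ± 0.291), and of the dendritic cell markers 3 of 7 (49.3 to 70.1 TPM, H2-Ab1 highest at 31.8 ± 8.53, Flt3 lowest at 0.0867 ± 0.0902). None of the 6 granulocyte markers was detected in every library (0.660 to 20.8 TPM, S100a8 highest at 2.65 ± 4.42, Mpo lowest at 0.233 ± 0.404), and neither was any of the 6 stroma markers (0.760 to 1.76 TPM, Col1a1 highest at 0.577 ± 0.140, Pdgfrb lowest at 0.00667 ± 0.0115). Of the erythroid and platelet markers 4 of 6 were detected (370 to 521 TPM, Hbb-bs highest at 265 ± 47.7, Ppbp lowest at 0.143 ± 0.169). In these bulk libraries fewer cells of a type and less RNA per cell cannot be told apart, and the part of other cells in the levels below was not tested.

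All 6 members were detected, taken as a TPM of at least 1 in every library, against 47.3% of the 22028 protein-coding genes and 22.7% of all annotated genes. Their levels spanned from 165 to 2.09 TPM, in the order Foxp1, Foxp3, Foxo1, Foxp4, Foxo3 and Foxo4. The median over the 6 was 55.0 TPM, beside 0.808 TPM over all protein-coding genes and 29.2 TPM over the 10429 detected ones. The members were chosen with earlier results of these data known, so these comparisons only describe them. Foxp2 and Foxo6 of the same groups are not members and were not detected. Of 48 other transcription factors of CD4 T cells 47 were detected too. Foxp1 and Foxp3 were the abundant members of the Foxp group and Foxo1 of the Foxo group.

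Foxp1, a repressor known for keeping naive T cells quiescent, lies on chromosome 6 (chr6:98925338-99522721, minus strand). It was at 156.62, 170.41 and 167.27 TPM in libraries 1, 2 and 3, a mean of 165 ± 7.23 TPM (SD, n = 3), from 6827, 7660 and 8467 expected counts. It ranked at position 1004 of the protein-coding genes. Library 1 was the lowest, by a factor of 1.09 against the highest.

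Foxp3 (chrX:7573644-7595245, plus strand) was at 137.81, 132.82 and 133.78 TPM, a mean of 135 ± 2.65 TPM (SD, n = 3), from 4563, 4468 and 5185 expected counts, and ranked at 1284. It had the smallest coefficient of variation of the 6 members at 1.96%, beside a median of 4.91% over 1139 protein-coding genes of like count (within 25% of its mean count). The 3 libraries thus held nearly the same Foxp3 level.

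Foxo1 (chr3:52268336-52353221, plus strand) was at 83.56, 78.53 and 88.32 TPM, a mean of 83.5 ± 4.90 TPM (SD, n = 3), and ranked at 2202. Its transcript of 8665 bases drew the most reads of the 6 members, with 14011, 14007 and 17768 expected counts. Library 2 was the lowest and library 3 the highest, and the coefficient of variation of 5.87% stood beside a median of 3.88% in 246 genes of like count.

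Foxp4 (chr17:47867133-47924645, minus strand), a widely expressed Foxp factor, was at 26.75, 24.46 and 28.18 TPM, a mean of 26.5 ± 1.88 TPM (SD, n = 3), from 1563, 1500 and 1937 expected counts. Foxo3 (chr10:42181841-42276755, minus strand), which in T cells acts in part redundantly with Foxo1, was at 4.82, 4.29 and 5.42 TPM, a mean of 4.84 ± 0.565 TPM (SD, n = 3), from 457, 413 and 569 expected counts. For both genes library 2 was the lowest and library 3 the highest, the same order of libraries as for Foxo1. Foxo4 (chrX:101254528-101260873, plus strand), the shortest Foxo gene here, was at 2.24, 2.21 and 1.82 TPM, a mean of 2.09 ± 0.234 TPM (SD, n = 3), from 119, 135 and 127 expected counts. Here library 3 was the lowest.

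**Figure D1:**
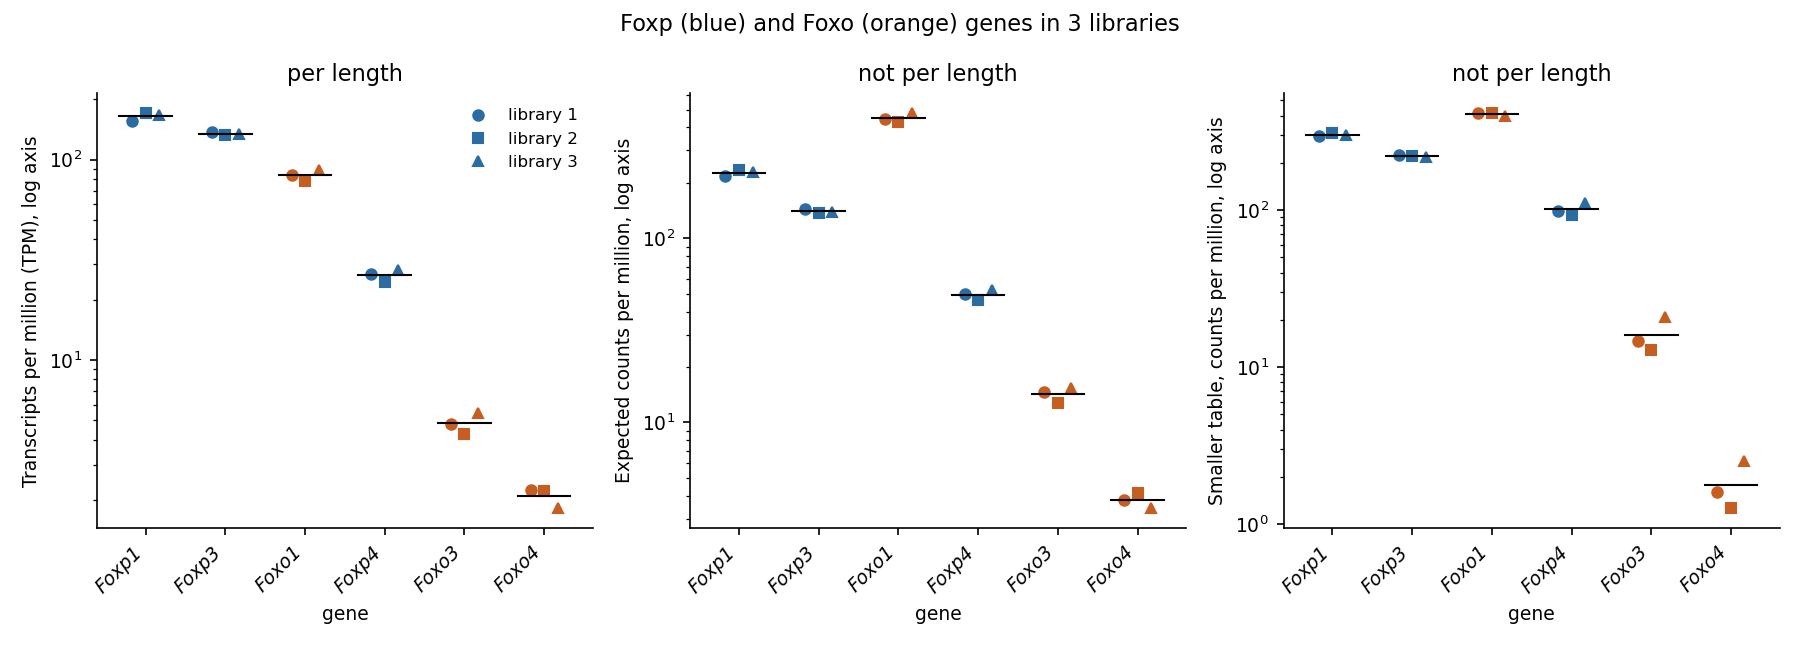
Levels of the 6 genes in libraries 1, 2 and 3 (points) with their mean (line), on log axes, in TPM, in CPM from the expected counts, and in counts of the smaller table scaled the same way. Foxo1 lies below Foxp1 and Foxp3 in TPM, at 83.5, and above both on the scales that are not corrected for length, at 451 and 408.

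The order of the members was set within each library. For each of the 15 pairs the log2 ratio of TPM had the same sign in all 3 libraries and a mean above 2 SD, so no neighbours in the order fell within their technical spread. An exact sign-flip permutation test of 3 libraries cannot go below p = 0.25, so no p-value is given for single pairs. The closest neighbours were Foxp1 and Foxp3, with log2 ratios of 0.18, 0.36 and 0.32, a mean of 0.29 ± 0.09 or 1.22-fold. Foxp3 exceeded Foxo1 by 0.69 ± 0.08 (1.62-fold), Foxo1 exceeded Foxp4 by 1.66 ± 0.02 (3.16-fold), Foxp4 exceeded Foxo3 by 2.45 ± 0.07 (5.48-fold) and Foxo3 exceeded Foxo4 by 1.21 ± 0.32 (2.32-fold).

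The places of Foxp1 and Foxp3 above Foxo1 depended on the scale. CPM (expected counts scaled to the library total, with no length correction) was 227 ± 8.98 for Foxp1, 141 ± 4.17 for Foxp3 and 451 ± 24.1 for Foxo1, so both log2 ratios of CPM were negative, at -0.99 for Foxp1 to Foxo1 and -1.68 for Foxp3 to Foxo1. Effective lengths averaged 2193 bases for Foxp1, 1662 for Foxp3 and 8616 for Foxo1. Foxo1, with 1 annotated transcript, had the same effective length in every library. Those of Foxp1 and Foxp3 differed between libraries, since they depend on the estimated split of reads between transcripts. How far that split bears on the TPM order, or on the sums by group below, was not tested. When only transcripts annotated as protein coding were summed, Foxp3 was at 72.8 ± 3.78 TPM and Foxo1 at 83.5 ± 4.90 TPM, a log2 ratio of -0.20 ± 0.02.

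Summed by group, the Foxp genes reached 321, 328 and 329 TPM and the Foxo genes 90.6, 85.0 and 95.6 TPM in libraries 1, 2 and 3, a ratio of 3.61 ± 0.213 (SD, n = 3). In CPM the direction turned, with Foxp sums of 412, 419 and 419 and Foxo sums of 464, 447 and 496, a ratio of 0.890 ± 0.0460. The ratio was 1.47 ± 0.0358 in the smaller table and 2.48 ± 0.109 in TPM of protein-coding transcripts. In TPM, Foxp1 made up 50.5% ± 1.64, Foxp3 41.4% ± 1.34 and Foxp4 8.12% ± 0.577 of the Foxp sum. Foxo1 alone made up 92.3% ± 0.110 of the Foxo sum. The remaining member of each group was barely measured: Foxp2 was at 0.160 ± 0.104 TPM and Foxo6 at 0.00667 ± 0.0115 TPM, both named after their values were seen.

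Read counts of 5 members, Foxo4 being the exception, differed between libraries by more than counting noise (chi-square test with 2 degrees of freedom on rounded expected counts, Benjamini-Hochberg adjusted over 15945 genes). The same held for 65.6% of those genes, so 5 of 6 is close to the background for a single group of technical libraries. The adjusted p was 5.68e-22 for Foxo1, 2.50e-05 for Foxp1, 0.00181 for Foxp4, 0.0170 for Foxo3, 0.0406 for Foxp3 and 0.370 for Foxo4 in that chi-square test. Once the statistic was divided by the overdispersion of 8.54 found over all genes, 0 members passed, against 1.97% of genes, and the lowest chi-square adjusted p was 0.0845, for Foxo1. Without library 1, 2 or 3 the counts of members that passed were 3, 2 and 3, with Foxo1 among them each time, against 48.5%, 40.6% and 45.1% of genes. With DESeq2 size factors, plain library totals or no filter on low counts, 5 members passed each time, against 65.7%, 65.8% and 41.8% of genes. Foxp4 and Foxo3 passed in the smaller table, that is 2 members, against 33.4% of 11502 genes.

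Each Foxp gene was made of several transcripts, and the leading transcript was annotated protein coding in 5 of 6 members. Foxp3 was the exception: its largest share lay on a transcript annotated for nonsense-mediated decay, the pathway that degrades RNA with an early stop codon. Of the 58 transcripts, 21 had at least 5% of their gene's TPM and 14 had 0 counts in all libraries. Shares are estimates by the authors' quantification, and a share of TPM weights a short transcript more than a share of counts does.

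**Figure D2:**
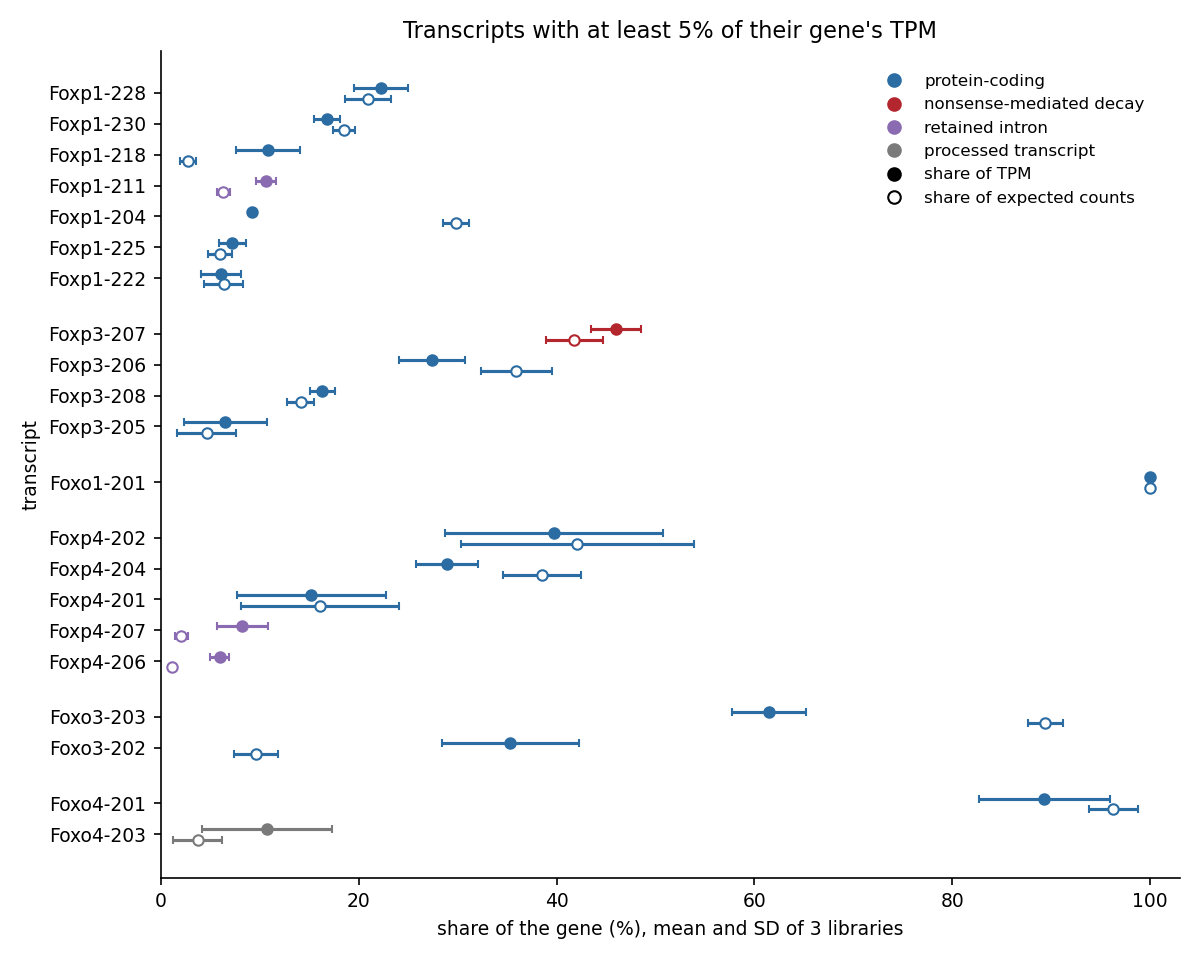
Share of each gene's TPM (filled) and of its expected counts (open) on the 21 transcripts with at least 5% of TPM, as mean and SD of 3 libraries, coloured by annotated type. Foxp3-207, annotated for nonsense-mediated decay, leads Foxp3 at 46.0% of TPM, and Foxp1-204 takes 29.8% of Foxp1 counts but 9.17% of its TPM.

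Foxp3-207 was at 63.70, 64.28 and 58.01 TPM, which is 46.0% ± 2.52 of the gene (SD, n = 3) and 41.8% ± 2.85 of its counts. Foxp3-206, which encodes the full form of 429 codons, was at 42.06, 31.70 and 37.34 TPM, or 27.4% ± 3.35. Foxp3-207 was the higher of both in every library. The authors' deposited intervals, whose level is not stated, overlapped in no library, although the TPM of Foxp3-207 lay above its own interval in libraries 1 and 2. In library 1 they ran from 53.0 to 63.4 TPM for Foxp3-207 and from 35.0 to 42.7 TPM for Foxp3-206. All 6 transcripts with the full coding sequence together took 36.9%, 24.2% and 32.5% of TPM, a mean of 31.2% ± 6.45 (39.6% ± 6.37 of counts). Library 2 was the lowest of the 3 by this measure. By counts these 6 transcripts took 45.2%, 32.6% and 41.0% in libraries 1, 2 and 3, beside 41.0%, 44.9% and 39.4% for Foxp3-207. The full form as a group was thus above Foxp3-207 by counts in libraries 1 and 3 and below it in library 2. By TPM it was below in every library.

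Foxp3-208 was at 20.46, 22.69 and 22.83 TPM, 16.3% ± 1.29 of the gene, and keeps an open frame of 394 codons. Foxp3-205 was at 2.84, 13.75 and 9.48 TPM, 6.50% ± 4.18, with 402 codons. It was the least steady of the 4 transcripts above 5%, and its deposited interval in library 1 reached down to 4.80e-04 TPM. Human T cells are known to make FOXP3 forms that lack single coding exons.

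Each of these transcripts leaves out a different coding exon of Foxp3-206, shown here because these stretches separate the forms. The exons lie on the plus strand of mm10 at chrX:7592159-7592235 (left out of Foxp3-207), chrX:7587074-7587178 (left out of Foxp3-208) and chrX:7589096-7589176 (left out of Foxp3-205), and the sequences are from the GENCODE M21 transcripts. Capitals mark the exon and lower case the 15 bases on each side in Foxp3-206.
Exon of 77 bases: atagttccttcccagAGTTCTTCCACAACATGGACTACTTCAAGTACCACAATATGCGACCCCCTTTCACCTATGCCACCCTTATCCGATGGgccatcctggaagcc
Exon of 105 bases: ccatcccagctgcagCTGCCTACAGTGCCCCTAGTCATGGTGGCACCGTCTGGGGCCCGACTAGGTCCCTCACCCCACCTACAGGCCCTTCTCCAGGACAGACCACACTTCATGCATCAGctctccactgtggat
Exon of 81 bases: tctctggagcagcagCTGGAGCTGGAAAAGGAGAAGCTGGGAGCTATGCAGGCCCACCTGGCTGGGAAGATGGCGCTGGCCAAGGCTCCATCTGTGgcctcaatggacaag

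The exons of 105 and 81 bases are 35 and 27 whole codons, so their loss keeps the frame. The exon of 77 bases is 25 codons and 2 bases, so its loss shifts the frame. Foxp3-207 shares its first 322 codons with the full form and ends after 335, at a TGA in the next exon. The junction is printed from 15 bases before the skipped exon to that stop codon, which is in capitals (chrX:7592650-7592690 after the junction).
Foxp3-207 across the junction: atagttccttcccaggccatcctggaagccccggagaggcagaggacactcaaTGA

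**Figure D3:**
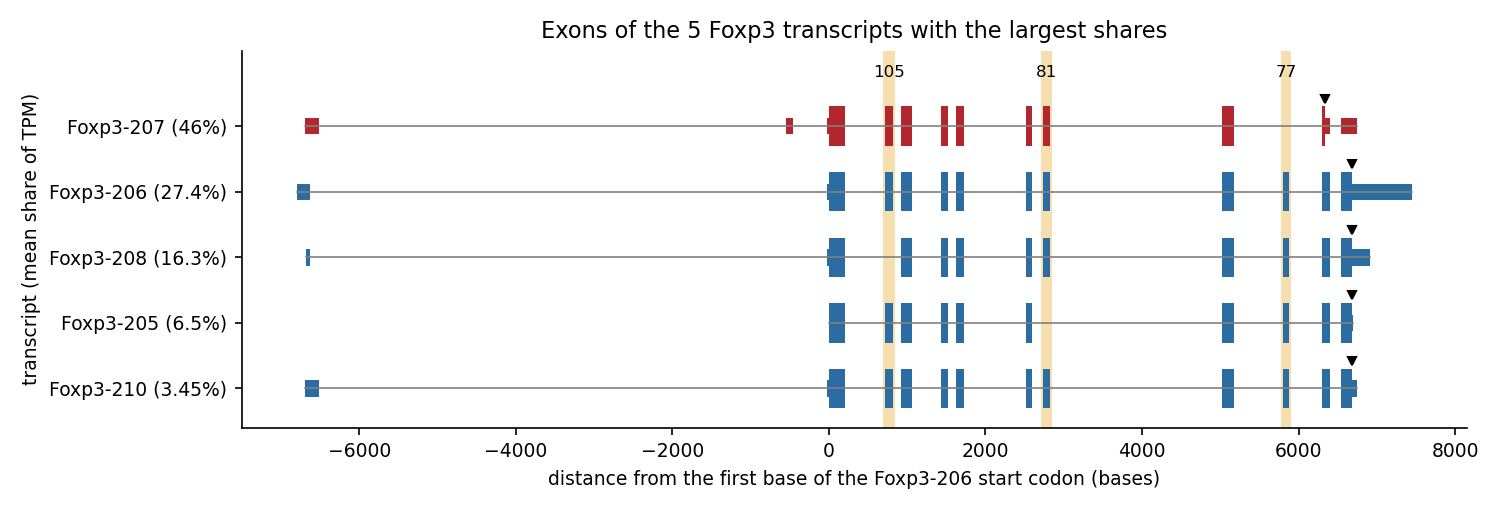
Exons of the 5 Foxp3 transcripts with the largest shares, by distance in bases from the start codon of Foxp3-206, with coding parts tall, stop codons as triangles and the 3 skipped exons shaded and marked with their length in bases. Foxp3-207 lacks the exon of 77 bases, and its stop codon lies upstream of the one shared by the other 4 transcripts.

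The Foxp3 shares rest on few distinguishing positions. Of the 50-base stretches of Foxp3-207, 48 of 1508 (3.18%) are in no other Foxp3 transcript, and Foxp3-206 has 102 of 2177 (4.69%). Foxp3-207 also holds an upstream noncoding exon of 83 bases that it shares only with Foxp3-202, Foxp3-203 and Foxp3-204. These 4 transcripts together took 46.2% ± 2.57 of TPM, nearly all of it on Foxp3-207, the one of the 4 with a short 3′ end. Of the 9 transcripts that reach the end of their coding sequence, the 5 that end within 1 kb of the stop codon took 99.7% ± 0.108 of TPM. How far the exon skip, the upstream exon and the 3′ end each weigh in the Foxp3-207 estimate was not tested.

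Foxp1 was spread over 7 transcripts above 5%. Foxp1-228, a coding sequence of 706 codons annotated without untranslated regions, was at 38.63, 32.81 and 37.87 TPM, 22.2% ± 2.73 of the gene. Foxp1-204, which encodes 705 codons with a long 3′ end, was at 13.96, 16.03 and 15.38 TPM, 9.17% ± 0.248 of TPM but 29.8% ± 1.31 of counts. The leading Foxp1 transcript therefore depended on the measure, and both candidates encode the long protein.

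Of the remaining transcripts above 5%, Foxp1-222 has the start codon of the long form, and the others start inside the gene or are not coding. Foxp1-230, with an internal start codon and 576 codons, was at 28.72, 27.80 and 26.48 TPM, 16.8% ± 1.33. Foxp1-225, with 577 codons from the same start, took 7.21% ± 1.39, and the short fragment Foxp1-218 took 10.8% ± 3.21. The largest transcript that retains an intron was at 15.74, 16.98 and 19.59 TPM, 10.6% ± 0.985, and the 4 such transcripts together took 16.1% ± 1.20. Protein-coding transcripts made up 77.8% ± 1.84 of Foxp1 TPM.

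Grouped by start codon, 13 Foxp1 transcripts with the start of the long form took 43.0%, 38.1% and 42.4% of TPM, a mean of 41.2% ± 2.69. The 8 transcripts with the internal start took 37.1%, 39.6% and 34.7%, a mean of 37.1% ± 2.47, and 10 with no annotated start codon the remaining 21.7% ± 1.57. By TPM the long and internal starts overlapped between libraries. By counts they did not, at 58.9% ± 1.66 for the long start and 27.9% ± 0.413 for the internal start. None of the 50-base stretches of Foxp1-228, Foxp1-204, Foxp1-230, Foxp1-225 or Foxp1-222 is particular to that transcript, so single Foxp1 shares are less certain than the groups. Shorter FOXP1 proteins without the N-terminal part are known from human B cell lymphoma.

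Foxp1-222, at 6.09% ± 2.01 of the gene, lacks a coding stretch of 96 bases that Foxp1-228 holds (chr6:99075950-99076045, minus strand). It is shown because 24 of its 32 codons are CAG or CAA, the glutamine codons of the glutamine-rich N-terminal region. Among the 12 transcripts that cross this place, the 4 without the stretch took 16.2%, 11.0% and 13.5% of TPM, a mean of 13.6% ± 2.61. The stretch lies inside Gm49348, a gene on the same strand with 11.93, 16.57 and 21.53 expected counts. Gm49348 shares 88 stretches of 50 bases with Foxp1, and how far this bears on the share was not tested. Capitals mark the stretch, with 15 bases of Foxp1-228 on each side.
Foxp1 stretch of 96 bases: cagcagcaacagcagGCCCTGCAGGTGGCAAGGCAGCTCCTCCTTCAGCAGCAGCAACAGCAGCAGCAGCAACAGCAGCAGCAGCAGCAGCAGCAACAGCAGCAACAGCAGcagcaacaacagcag

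On average Foxp4 was led by Foxp4-202 (673 codons), at 11.05, 6.86 and 14.02 TPM, 39.7% ± 11.0 of the gene. Foxp4-204 (672 codons) was at 8.10, 7.61 and 7.15 TPM, 28.9% ± 3.10, and Foxp4-201 (685 codons) at 3.56, 5.74 and 2.48 TPM, 15.2% ± 7.51. Library 2 was low for Foxp4-202 and high for Foxp4-201, and there Foxp4-204 was the leading transcript. These transcripts have 0 own stretches of 50 bases each, except for Foxp4-204 with 800 of 3950 (20.3%). Protein-coding transcripts held 83.8% ± 1.16 of Foxp4 TPM, and the retained introns Foxp4-207 and Foxp4-206 held 8.22% ± 2.61 and 5.92% ± 0.976.

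Foxp4-201 holds 36 coding bases that Foxp4-202 lacks (chr17:47875689-47875724, minus strand), shown because they add 12 codons to the protein. Among the 4 transcripts that cross this place, those with the bases took 15.7%, 28.4% and 10.5% of TPM, a mean of 18.2% ± 9.22. The spread between technical libraries was thus about as wide as the lowest value. Capitals mark the 36 bases.
Foxp4 stretch of 36 bases: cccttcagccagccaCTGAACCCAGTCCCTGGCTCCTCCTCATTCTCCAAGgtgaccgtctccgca

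The Foxo genes were simpler. Foxo1 has a single annotated transcript, Foxo1-201, of 652 codons. Foxo3 was led by Foxo3-203 (672 codons) at 3.15, 2.61 and 3.15 TPM, 61.5% ± 3.73 of TPM and 89.4% ± 1.79 of counts. Foxo3-202 was at 1.32, 1.62 and 2.20 TPM, 35.3% ± 6.92 of TPM but 9.61% ± 2.24 of counts, since it is 1316 bases long against 6848 for Foxo3-203. Foxo4-201 (505 codons) took 89.3% ± 6.61 of Foxo4 TPM, and the noncoding Foxo4-203 took 18.2%, 7.69% and 6.04%.

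Foxo3-202 encodes 244 codons and stops in an alternative last exon, which is shown because it replaces the end of the protein (chr10:42247670-42247786, minus strand). Of its 50-base stretches, 359 of 1267 (28.3%) are in no other Foxo3 transcript. The sequence runs from 15 bases before the junction to the stop codon, which is in capitals.
Foxo3-202 across the junction: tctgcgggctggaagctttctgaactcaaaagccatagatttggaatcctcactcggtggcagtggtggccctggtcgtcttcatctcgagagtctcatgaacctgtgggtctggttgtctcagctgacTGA

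Members differed in how far their reads were shared with other genes. Foxp4, Foxo3 and Foxo4 share 0 of their 50-base stretches with another gene and have whole counts. Foxp3 shares 1109 of 4803 (23.1%), with Flicr on the same strand (706 stretches) and with Ccdc22 (403), Ppp1r3f (217) and Gm36995 (188) on the opposite strand. Flicr, a noncoding RNA known to regulate Foxp3, was at 17.01, 17.65 and 18.14 TPM, a mean of 17.6 ± 0.567, well below Foxp3. Foxp1 shares 2.42%, mainly with the overlapping gene Gm20696 at 6.86 ± 0.151 TPM.

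At the Foxo1 locus a gene on the opposite strand, Gm20402 (chr3:52268435-52269435, minus strand), shares 577 stretches of 50 bases with Foxo1. Gm20402 was at 127.27, 125.75 and 127.51 TPM, above Foxo1 in each library. Its expected counts were 1580.18, 1660.95 and 1899.36, and the sums with Foxo1 were whole to within 0.03, at 15591, 15668 and 19667. The posterior SDs of both counts were also the same to within 0.01 in every library, at 24.37, 23.03 and 26.15 for Foxo1. Whether the reads given to Gm20402 came from its own strand or from Foxo1 was not tested. Gm20402 held 10.1% ± 0.470 of the summed counts, and with these reads added Foxo1 would stand at 93.0, 87.8 and 97.8 TPM in libraries 1, 2 and 3.

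**Figure D4:**
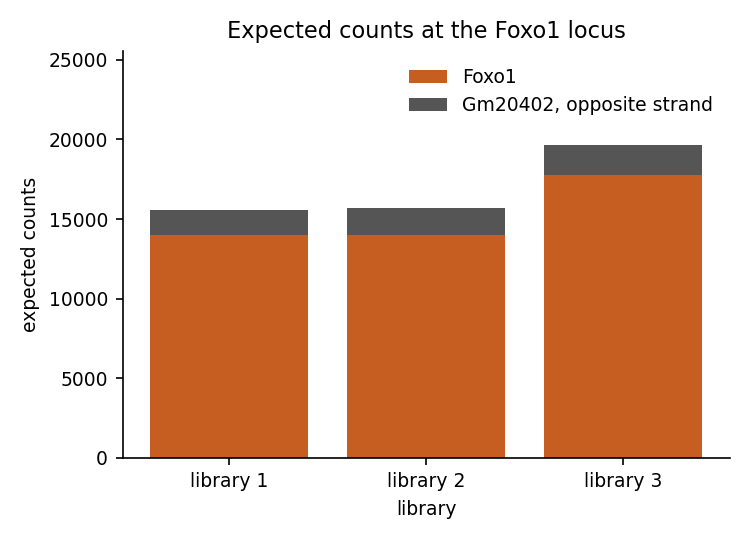
Expected counts of Foxo1 and, stacked on them, of the opposite-strand gene Gm20402 in libraries 1, 2 and 3. The stacks sum to 15591, 15668 and 19667 counts, and Gm20402 takes 10.1% of them on average.

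The smaller gene table gave the same genes at other relative levels. Scaled to its total as CPM, Foxo1 led at 408 ± 10.3, followed by Foxp1 at 303 ± 6.06, Foxp3 at 221 ± 2.85, Foxp4 at 101 ± 8.92, Foxo3 at 16.1 ± 4.19 and Foxo4 at 1.78 ± 0.651. Foxo4 rested there on 14, 11 and 24 counts in libraries 1, 2 and 3. All 15 pairs again exceeded 2 SD. For each 100 expected counts the smaller table held 55.1 ± 0.859 counts of Foxp4, 42.3 ± 1.82 of Foxp3, 35.9 ± 2.11 of Foxp1, 30.2 ± 4.20 of Foxo3, 24.4 ± 2.70 of Foxo1 and 12.9 ± 5.47 of Foxo4. The table divided by the effective lengths of the larger one put Foxp1 and Foxp3 above Foxo1 again, by 1.54 and 1.49 on the log2 scale, and brought Foxp1 to Foxp3 down to 0.05 ± 0.04, within 2 SD.

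Among 48 other transcription factors of CD4 T cells, 12 stood above Foxp1, 15 above Foxp3, 23 above Foxo1, 41 above Foxp4 and 45 above Foxo3 and Foxo4. The factor nearest to Foxp1 in mean log2(TPM + 1) was Nfatc1, a calcium-responsive factor, at 175 ± 8.49 TPM (difference, member minus factor, -0.09 ± 0.13). The nearest to Foxp3 was the chromatin organiser Satb1 at 131 ± 2.10 (0.04 ± 0.03), and to Foxo1 Ikzf1, which encodes Ikaros, at 74.9 ± 2.03 (0.15 ± 0.12). Zeb1 at 25.6 ± 1.28 was nearest to Foxp4 (0.05 ± 0.17) and Bcl6 at 7.06 ± 0.623 to Foxo3 (-0.47 ± 0.25). These are likenesses of level over 3 libraries of the same cells. High members of the list were Ets1 (736 ± 18.8) and Klf2 (437 ± 7.11), with Zeb2 lowest at 0.670 ± 0.351.

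Of 38 other forkhead genes, 8 were detected, and 15 had 0 counts. Foxn3, a repressor linked to the cell cycle, exceeded all 6 members at 230 ± 9.63 TPM. Foxj3 (31.9 ± 1.44), Foxj2 (26.4 ± 2.09), Foxn2 (17.1 ± 1.20), Foxk2 (14.1 ± 1.91), Foxk1 (12.7 ± 0.683) and the mitotic regulator Foxm1 (10.7 ± 0.396) lay between Foxp1 and Foxo3, and Foxd2 was at 1.98 ± 0.782. The median over the 38 was 0.0117 TPM.

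RNAs of proteins reported to act with Foxp3 and of regulators of its locus were nearly all detected. This was not particular to them. Of the 48 other transcription factors of CD4 T cells 47 were detected too, against 47.3% of protein-coding genes. Of 36 partner genes 35 were detected, with a median of 93.1 TPM, led by Ikzf2 (389 ± 26.3), which encodes Helios, Hif1a (268 ± 15.9) and Tcf7 (260 ± 12.1), and the deacetylase gene Hdac9 was lowest at 0.517 ± 0.127. Foxp1 and Foxp4 are both in this list. All 28 genes reported to bind or open the Foxp3 locus were detected, with a median of 50.5 TPM, led by Ets1, the methyl-DNA-binding gene Mbd2 (392 ± 21.3) and Nfatc1. Nr4a2, a receptor-induced gene, had the lowest mean at 4.28 ± 1.29 TPM, beside 4.84 ± 0.565 for Foxo3. In library 2 Nr4a2 was above Foxo3, at 5.41 against 4.29 TPM. Foxo1 and Foxo3 are themselves in this list.

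Genes known to be higher with Foxp3 stood at a median of 269 TPM, all 20 detected, beside 47.3% of protein-coding genes. Il2rb, a chain of the interleukin receptor that sustains Treg cells, was at 1032 ± 32.5 TPM, the actin-capping gene Capg at 967 ± 32.3 and the costimulatory receptor gene Tnfrsf4 at 951 ± 21.4, with Swap70 lowest at 60.1 ± 1.09. Of 18 genes known to be repressed by Foxp3, 16 were detected, with a median of 87.3 TPM. Igfbp4 (283 ± 14.6), Tcf7 and the phosphatase gene Ptpn22 (198 ± 3.17) led them, all above Foxp3 itself, and the cytokine gene Il17a had 0 counts. With no cells lacking Foxp3 in the series, these are levels and not effects of Foxp3.

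Of 41 regulators of Foxo proteins 40 were detected, with a median of 48.7 TPM, beside 47 of the 48 other transcription factors of CD4 T cells. The highest were genes of the Ywha proteins, which hold phosphorylated Foxo in the cytoplasm: Ywhaz was at 839 ± 16.8, Ywhah at 327 ± 4.95 and Ywhaq at 242 ± 10.2 TPM. The Akt phosphatase gene Phlpp2 was lowest at 0.603 ± 0.362. Of 40 genes known to be activated by Foxo factors, Foxp3 among them, 39 were detected, with a median of 61.8 TPM. Txnip (479 ± 23.2), an inhibitor of glucose uptake, and Klf2, a factor for lymphocyte trafficking, were among the highest, and the muscle ubiquitin ligase gene Trim63 had 0 counts. Phosphorylation and location of Foxo proteins were not measured here.

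**Figure D5:**
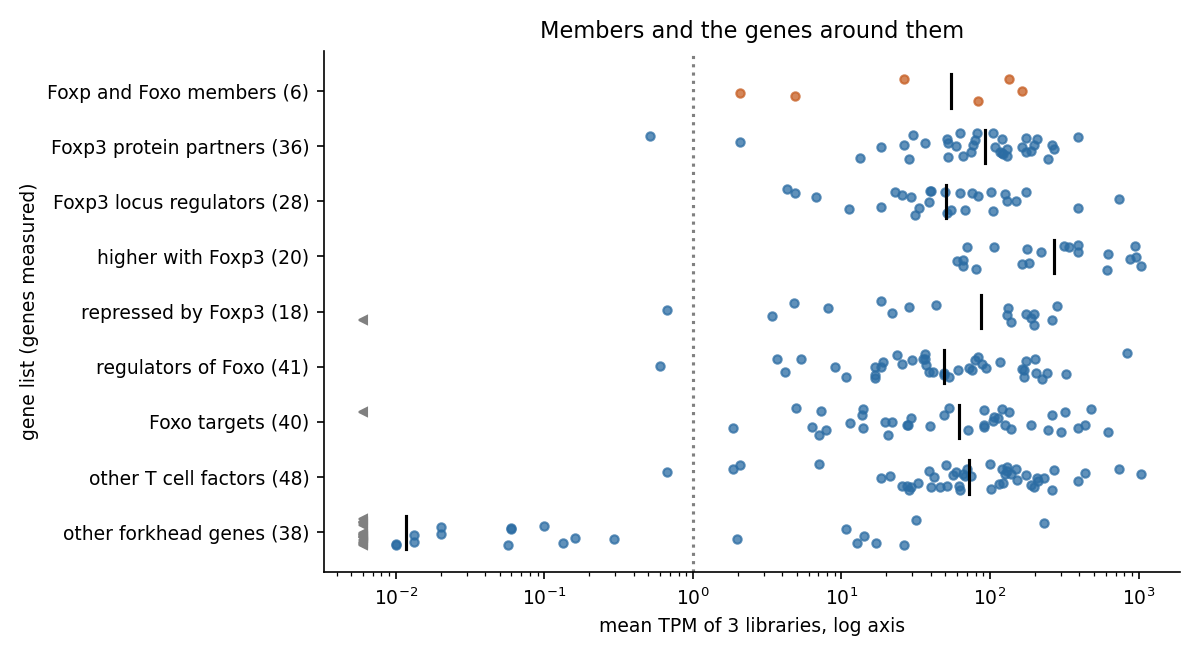
Mean TPM of 3 libraries on a log axis for the 6 members and for 8 lists of genes around them, with medians as black lines, the detection level of 1 TPM dotted and genes below 0.01 TPM as grey triangles. Some of these lists also hold members. The members span from 2.09 to 165 TPM, and of 38 other forkhead genes 8 lie above 1 TPM.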

How the data were processed

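The libraries are 3 technical replicates of 1 biosample. Per the file headers and notes, the authors deposited for each library a larger gene table and a transcript table (mm10, GENCODE M21) with expected counts, TPM and TPM interval bounds of unstated level. A smaller gene table of whole counts, also deposited, used GENCODE M4 on the same build and another alignment. The percent share per transcript that the authors deposited was not used, and shares were computed from TPM. The sources used here name no aligner, quantification program or strand setting, and do not say how the smaller table counts. Rows that match no annotated gene (0.125% to 0.182% of counts) stayed out of library sizes and tests.

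Expected counts were rounded for the chi-square test (summed count of at least 30, edgeR 4.0.16 TMM sizes, Benjamini-Hochberg at 0.05). The test was checked on simulated data with counting noise only, so the check does not cover the overdispersion of 8.54 found here. Alternatives used DESeq2 1.42.0 size factors, a filter on low counts left off, CPM, the smaller table and each library left out. Deposited intervals can lie below the TPM, as they did for Foxp3 and Foxo1 in every library (Foxo1 in library 1 was at 83.56 TPM, with bounds of 76.0 and 78.6). No molecular identifiers are stated, so tests cover counting error only.

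Members and gene lists were chosen with earlier results of these data known. Named genes are the members, other forkhead genes at 1 TPM or more, the 3 highest and the lowest of each list (of markers of other cell types, the highest and lowest), the factor nearest each member in level, and transcripts with at least 5% of TPM. Some genes that this rule names are not reported here. Motif and promoter sequences were not used. R 4.3.3 and Python were used.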

Additional observations from a re-analysis of the deposited data

How the results depend on the processing

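The 6 detected members stayed 6 with protein-coding transcripts only and without any single library, and were 4 at a minimum of 10 TPM. In the smaller table, where detection was taken as at least 10 counts in every library, they were also 6. Foxo4 passed there with 14, 11 and 24 counts. All 15 pairs stayed past 2 SD in CPM, with protein-coding transcripts only, in the scaled smaller table, on log2(TPM + 1) and without each library, but some turned round. The log2 ratio of Foxp1 to Foxo1 was -0.99 in CPM and -0.43 in the smaller table, and that of Foxp3 to Foxo1 was -1.68, -0.88 and, with protein-coding transcripts only, -0.20. In the smaller table per base of effective length these ratios were 1.54 and 1.49, turned round from that table's own values, and 14 pairs were past 2 SD. The length correction accounts by construction for the CPM values and for the turn per base of effective length. The turn with protein-coding transcripts only follows by construction from leaving out Foxp3-207, at 62.0 TPM. It is the only Foxp3 transcript not annotated protein coding, and Foxo1 has none. The scaled smaller table also has no length correction, and it differs from TPM in alignment and annotation as well. How far each weighs in its turns was not tested. The 5 members that varied between libraries were 0 after division by the overdispersion (1.97% of genes), 2 in the smaller table (33.4%) and between 2 and 3 without one library (40.6% to 48.5%, with 2 without library 2, where Foxp1 and Foxo1 passed). They were 5 with DESeq2 sizes (65.7%), plain totals (65.8%) or no filter (41.8%). By counts in place of TPM, coding shares were 86.2% for Foxp1, 58.2% for Foxp3, 96.7% for Foxp4 and 96.3% for Foxo4, and 5 members kept a coding leading transcript. Alternatives chosen after seeing the data were the reads of Gm20402 added to Foxo1, which left all 15 pairs past 2 SD, and other scales for the log2 ratio of the Foxp to the Foxo sum, which was 1.85 in TPM, -0.17 in CPM and between 0.55 and 1.71 on the others.

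No paired analysis was possible because the series has 1 group. Spread is technical, so nothing is known of variation between mice. Depth limits Foxo4 most, with 119 to 135 expected counts and 11 to 24 counts in the smaller table.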
